A study of Homo sapiens with 44 samples.

Results

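Transforming growth factor beta 1 (TGF-β1, labelled TGFB1) and interleukin 13 (IL-13, labelled IL13), a pair of cytokines linked to tissue fibrosis, were compared directly for their effect on chromatin accessibility in human colon fibroblasts. The comparison takes 8 of the 44 libraries of the study, namely the 4 labelled TGFB1 and the 4 labelled IL13, and all peaks of the deposited table. Accessibility was measured by ATAC-seq, in which a transposase cuts open DNA and adds sequencing adaptors. The cells were Ccd18-Co, an established fibroblast line from human colon, so that every library comes from 1 line. Both groups, and the 4 unstimulated libraries shown as a reference, were moved to serum-free medium. The cytokine groups then received TGFB1 or IL13 at 10 ng/ml for 24 h, and the unstimulated group received no cytokine. The other groups of the study held cells given 1 of the remaining cytokines. The labels do not say whether the 4 replicates were separate cultures, so the spread behind the p-values may be technical. For single peaks this is the spread between replicates pooled over all 44 libraries. For measures of whole libraries it is that of the 8 alone.

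TGF-β1 binds a pair of receptor kinases that phosphorylate the transcription factors SMAD2 and SMAD3, which join SMAD4, enter the nucleus and bind DNA, often beside AP-1 factors. IL-13 binds a receptor made of IL13RA1 and IL4R, whose JAK kinases phosphorylate STAT6. Both pathways are known to drive matrix production in fibroblasts, and each induces its own inhibitors, such as SMAD7 for TGF-β1 and SOCS1 or CISH for JAK and STAT signalling.

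To show the letter patterns known to be bound by the factors of these pathways as they stand in called peaks, 8 windows of 160 bases were picked because they hold such a pattern, all on the plus strand of hg38. TBX3, PLCE1-AS1, IRF2 and LINC02458 are among the 24 peaks with the largest changes, and TGFB2, IGF1, TWIST2 and DPP4 come from the gene lists. The peak with the largest change of all, named for RMI2, holds none of the SMAD, STAT6 and AP-1 patterns and is not shown. In windows of peaks higher with TGFB1, capitals mark the AP-1 pattern TGANTCA, the SMAD palindrome GTCTAGAC or the short SMAD pattern CAGACA. In windows of peaks lower with TGFB1, capitals mark the STAT6 pattern, TTC and GAA spaced by 4 bases.
TBX3 peak (chr12:115156070-115156229), higher with TGFB1: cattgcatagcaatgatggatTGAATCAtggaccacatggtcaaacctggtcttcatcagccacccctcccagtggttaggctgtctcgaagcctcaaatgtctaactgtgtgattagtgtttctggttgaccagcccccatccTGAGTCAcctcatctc
PLCE1-AS1 peak (chr10:94224681-94224840), higher with TGFB1: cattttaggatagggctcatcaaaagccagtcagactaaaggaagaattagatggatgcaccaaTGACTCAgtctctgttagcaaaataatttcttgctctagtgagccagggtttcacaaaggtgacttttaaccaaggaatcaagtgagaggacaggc
TGFB2 peak (chr1:218375051-218375210), higher with TGFB1: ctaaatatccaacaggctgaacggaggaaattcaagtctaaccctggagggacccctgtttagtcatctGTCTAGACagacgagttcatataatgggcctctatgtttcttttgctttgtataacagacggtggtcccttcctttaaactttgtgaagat
IGF1 peak (chr12:102423512-102423671), higher with TGFB1: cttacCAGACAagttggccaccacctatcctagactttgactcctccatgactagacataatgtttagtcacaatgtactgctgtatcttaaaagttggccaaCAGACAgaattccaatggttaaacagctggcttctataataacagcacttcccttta
IRF2 peak (chr4:184547482-184547641), lower with TGFB1: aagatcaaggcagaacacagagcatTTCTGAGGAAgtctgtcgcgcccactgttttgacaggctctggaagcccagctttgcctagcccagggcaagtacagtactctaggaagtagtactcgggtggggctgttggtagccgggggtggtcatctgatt
LINC02458 peak (chr12:89179280-89179439), lower with TGFB1: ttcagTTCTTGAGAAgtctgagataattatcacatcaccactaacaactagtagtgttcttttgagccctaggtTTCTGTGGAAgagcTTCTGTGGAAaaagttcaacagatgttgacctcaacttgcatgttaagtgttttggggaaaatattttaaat
TWIST2 peak (chr2:238852233-238852392), lower with TGFB1: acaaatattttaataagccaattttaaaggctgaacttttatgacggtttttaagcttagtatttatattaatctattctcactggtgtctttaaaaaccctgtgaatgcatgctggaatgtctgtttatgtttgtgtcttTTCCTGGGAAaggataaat
DPP4 peak (chr2:162090041-162090200), lower with TGFB1: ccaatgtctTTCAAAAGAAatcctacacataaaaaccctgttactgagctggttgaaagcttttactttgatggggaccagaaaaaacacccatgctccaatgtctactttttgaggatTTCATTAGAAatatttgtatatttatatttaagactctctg

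Chromatin differed between the cytokines at 35393 of 407176 tested peaks (8.69%; limma, Benjamini-Hochberg adjusted p under 0.05). Accessibility was higher with TGFB1 at 22294 peaks (5.48%) and lower at 13099 (3.22%), so 63.0% of calls were higher. The 4 libraries of one cytokine lay wholly on one side of the other 4 at 49038 peaks (12.0% of those tested), among them 76.3% of the higher and 79.6% of the lower calls. Changes of at least 2-fold on the log2(coverage per Mb + 0.5) scale were made by 17077 higher and 4676 lower calls. The split changed with the scaling and with the libraries in the model. Offsets fitted by loess to the level of each peak gave 25632 calls (6.3%), of which 14080 were higher and 11552 lower. Of the 35393 calls, 22598 stayed called in the same direction with these offsets. They were 12910 of the higher (57.9%) and 9688 of the lower calls (74.0%). A fit on the 8 libraries alone gave 13693 higher and 17265 lower.

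Over all tested peaks the median coverage was 0.909 per Mb and the median distance to the nearest transcript start 6.86 kb. Higher peaks had a median coverage of 2.13 per Mb and lay a median of 9.75 kb from a start. By deposited class, 11740 of them were intronic and 2.66% were promoter peaks. Lower peaks had a median coverage of 7.73 per Mb, lay 3.62 kb from a start and were promoter-class in 16.3% of cases, against 7.15% of all tested peaks. Of the higher calls, 30.1% had a mean coverage under 1 per Mb, against 1.00% of the lower calls.

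These differences went with a difference between whole libraries. The strongest 1% of peaks held 12.5 ± 0.533% of all coverage with TGFB1 and 14.9 ± 0.454% with IL13 (mean ± SD, n = 4 each), and the groups did not overlap (exact permutation test, two-sided, p = 0.0286, the smallest that 4 against 4 can give). Promoter-class peaks held 17.8 ± 0.531% with TGFB1 and 20.8 ± 0.379% with IL13, also without overlap (exact permutation p = 0.0286). Total coverage was 425 ± 122 Mb with TGFB1 and 401 ± 180 Mb with IL13, a difference smaller than the spread (exact permutation p = 0.83). The median log2 change fell with the level of the peak, from 0.30 below 0.5 per Mb to -0.22 above 16 per Mb, and with loess offsets it was -0.04 and -0.03 in these bins. The part of this trend in the calls was not tested, and calls lost with loess offsets are named as such. In log2 values across peaks, all 4 TGFB1 libraries correlated best with a library labelled IFNA, IL13 replicate 4 with one labelled IL6 and the other 3 IL13 libraries with another IL13 library. Correlations ran from 0.811 to 0.853 within TGFB1, from 0.812 to 0.892 within IL13 and from 0.761 to 0.852 between them. These libraries share the same peaks and differ in depth.

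**Figure D1:**
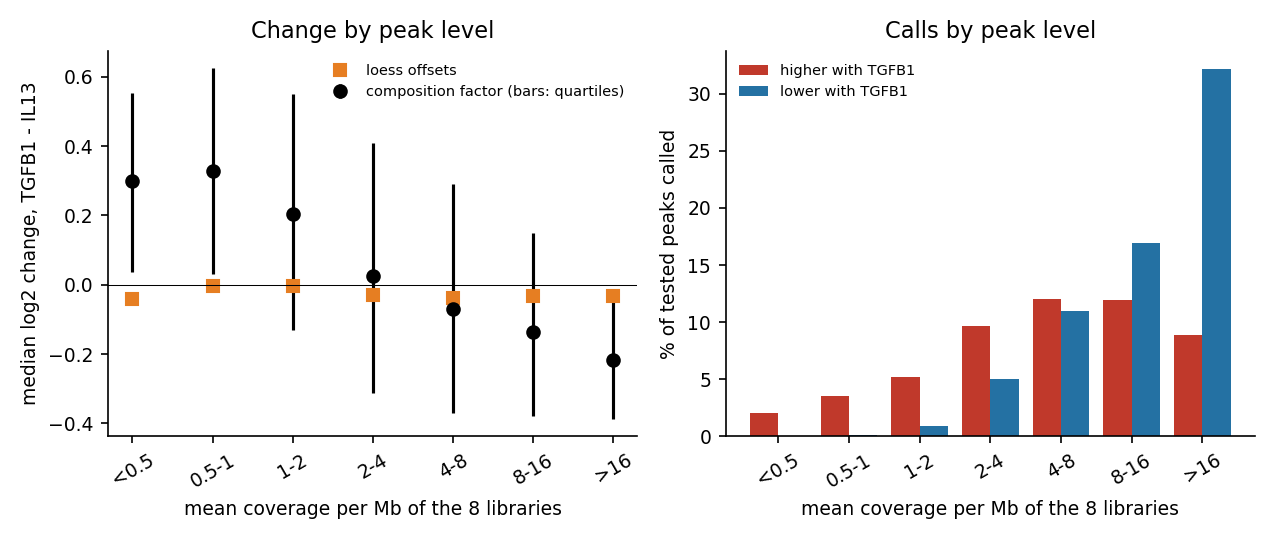
Left, median log2 change of TGFB1 against IL13 (vertical axis) by mean coverage per Mb of the 8 libraries (horizontal axis), with quartiles as bars and the loess medians as squares. Right, percent of tested peaks called higher or lower in the same bins. Above 16 per Mb 8.87% were called higher and 32.2% lower, and below 0.5 per Mb 2.07% were called higher.

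Of the 12 peaks highest with TGFB1 against IL13, the largest change was at an intergenic peak named for TBX3, a T-box transcription factor. This peak lay at chr12:115155889-115156389, 472.0 kb from the TBX3 start. Its coverage per Mb was 37.6, 30.7, 32.2 and 32.1 in the TGFB1 libraries and 2.72, 1.65, 2.35 and 1.86 in the IL13 libraries, against a mean of 6.74 in unstimulated libraries. Every TGFB1 library lay far above every IL13 library (log2 change 3.68, SE 0.19, limma adjusted p = 2.64e-48). An intronic peak at PLCE1-AS1, an antisense RNA of the phospholipase gene PLCE1, had 16.5, 18.4, 14.0 and 14.2 with TGFB1 and 1.65, 0, 1.36 and 0.884 with IL13 (log2 change 3.65). The peak named for MTAP, a methylthioadenosine phosphorylase, had a mean of 17.2 ± 1.77 with TGFB1 and 1.25 ± 1.12 with IL13. The peak named for BDKRB2, a bradykinin receptor, had 7.84 ± 1.67 and 0.251 ± 0.198. An intron of ITGAE, the integrin αE chain, had 16.9 ± 1.98 and 1.29 ± 0.47. The other 7 were named for DIRC3-AS1, MIR4794, MBOAT1, CCDC185, UTP23, MND1 and GPC6-AS2, with log2 changes between 3.31 and 3.63. Of these 12 peaks, 7 were intronic and 5 intergenic, and 10 held an AP-1 pattern.

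Among the 12 peaks lowest with TGFB1 against IL13, the largest change was in an intron, 1 kb from the start of RMI2 (chr16:11250423-11250923). The deposited table names this peak for RMI2. It also lay 5.53 kb downstream of the start of the neighbouring SOCS1, an inhibitor of JAK kinases, and the data do not tell which gene it belongs to. Its coverage per Mb was 0.775, 0.864, 1.58 and 1.32 with TGFB1 and 22.1, 22.2, 25.9 and 27.5 with IL13, against 2.98 ± 1.15 in unstimulated libraries. No TGFB1 library came near an IL13 library (log2 change -3.95, SE 0.26, limma adjusted p = 2.76e-34). An intergenic peak named for IRF2, an interferon regulatory factor, had 1.36, 2.52, 1.21 and 1.19 with TGFB1 and 21.6, 23.2, 21.9 and 24.2 with IL13 (log2 change -3.53). A peak at LINC02458, a long non-coding RNA, had 0.606 ± 0.738 and 8.76 ± 1.12. An intron of NFASC, the adhesion protein neurofascin, had 0.684 ± 0.615 and 8.03 ± 1.82. The peak named for ZAP70, a kinase known from T cells, had 2.04 ± 0.511 and 19.2 ± 4.14. The remaining 7 were named for RMI2, COL6A1, MIR4681, TTC7B, MIR3152, LOC105376480 and SYT2, with log2 changes between -2.82 and -3.18. Of the 12, 7 held a STAT6 pattern and 1 an AP-1 pattern. In all 24 peaks the unstimulated mean lay between those of the cytokines, and the peaks were picked for the gap between the cytokines. This order does not mean that both cytokines differed from unstimulated. At TBX3 both passed the limma test against unstimulated. At IRF2 TGFB1 did not (limma adjusted p = 0.93), and at BDKRB2 IL13 did not (limma adjusted p = 0.28).

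**Figure D2:**
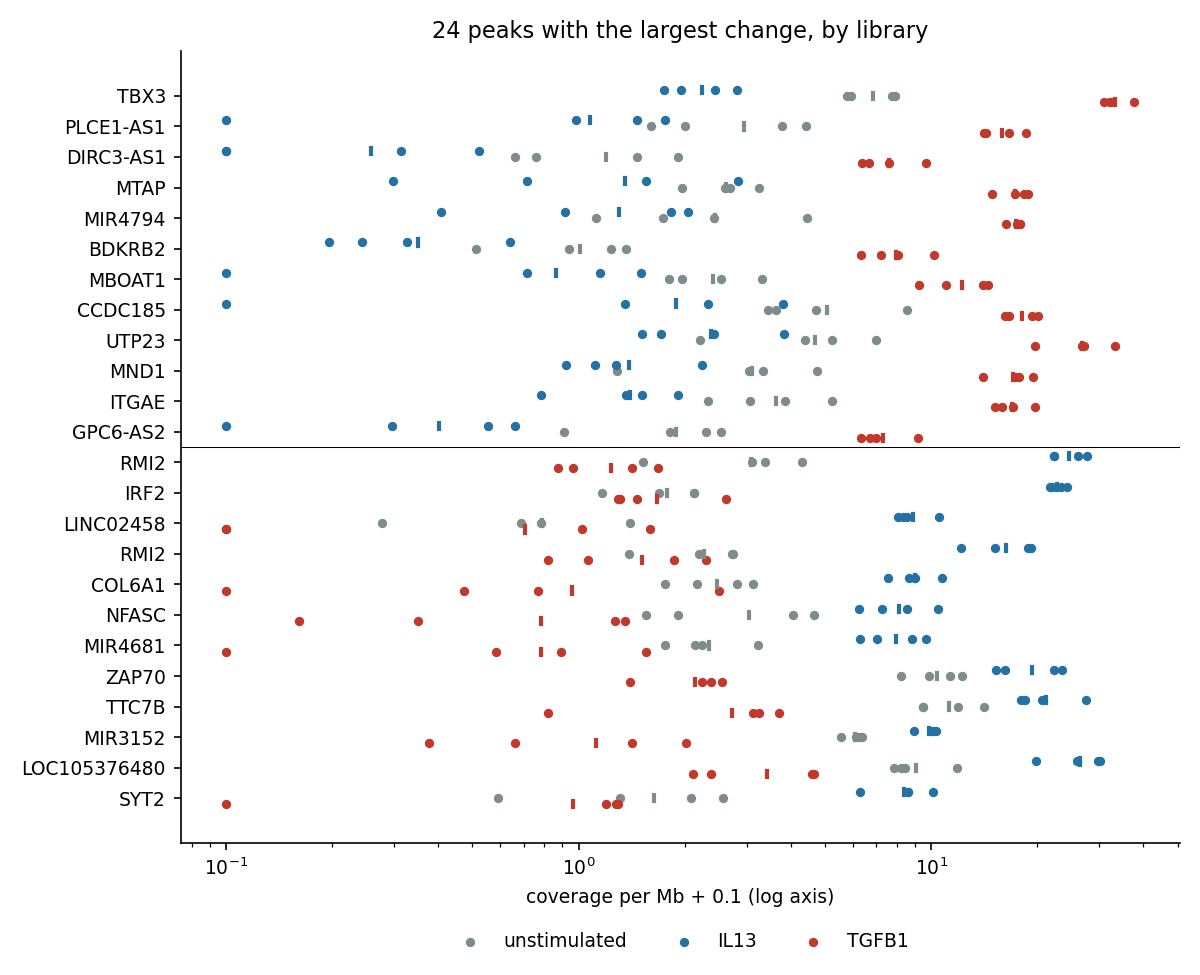
Coverage per Mb plus 0.1 (log axis) in each library for the 12 peaks highest with TGFB1 against IL13 (above the line) and the 12 lowest (below it). Points are libraries and ticks are means of 4, for example 33.1 with TGFB1 and 2.14 with IL13 at TBX3, and the TGFB1 and IL13 points do not overlap in any peak.

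Among peaks within 1 kb of a transcript start, 2.94% of 79321 were called higher with TGFB1 and 5.62% lower, and their median log2 change was 0.01, against 0.21 over all tested peaks. For 261 of 267 genes in 9 lists a start peak was tested, of which 17 were higher and 42 lower, with a median of -0.16. Of these 59 called start peaks, 5 carry the name of a neighbouring or antisense gene in the deposited table, namely those of PMEPA1 (NKILA), CISH (MAPKAPK3), ACTA2 (ACTA2-AS1), MYLK (MYLK-AS1) and SMTN (SELENOM), and ATAC-seq does not tell which of the genes such a peak belongs to.

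Genes of the TGF-β pathway had 4 of 32 start peaks higher and 0 lower (median log2 change 0.09). At SMAD7, the inhibitor of the receptors, the peak lay at an alternative start 8.22 kb inside the gene and had 37.5, 33.1, 35.5 and 30.2 with TGFB1 and 17.1, 17.9, 13.6 and 11.1 with IL13 (log2 change 1.18, limma adjusted p = 1.14e-14). The groups did not overlap. PMEPA1, another feedback inhibitor, had 6.16 ± 1.00 and 3.27 ± 0.655 (log2 change 0.82, limma adjusted p = 0.0164). NOX4, an NADPH oxidase, had 11.0 ± 2.2 and 6.40 ± 0.958 (log2 change 0.73, limma adjusted p = 0.00871). The start peaks of TGFBR1, SMAD2 and SMAD4 did not pass the test, with log2 changes of 0.10, 0.07 and -0.04.

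Over all peaks named for the list, 173 of 1651 were higher (10.5%) and 59 lower (3.57%), against 5.48% and 3.22% of all tested peaks. The share of higher peaks exceeded 5.48% in every other list too, from 5.85% for collagens and their enzymes to 10.6% for matrix proteases. An intron of TGFB2, a ligand of the same receptors, had 15.2, 9.57, 9.15 and 9.66 with TGFB1 and 0.383, 0.542, 0.57 and 1.16 with IL13 (chr1:218374880-218375380, log2 change 3.30, limma adjusted p = 1.16e-16), and it holds the SMAD palindrome shown above. All TGFB1 values were higher. Another peak 0.8 kb from the start of TGFBR1, a receptor kinase, had 8.24 ± 1.68 and 1.09 ± 0.598 (log2 change 2.53). Within 40 kb of the SMAD7 start 10 of 63 peaks were higher and 0 lower. Of 36 peaks named for TGFBI, a matrix protein induced by TGF-β, 23 were higher and 1 lower. In the other direction, a peak 78.1 kb from SMAD6, an inhibitor of BMP signalling, had 2.46 ± 1.18 and 8.56 ± 1.5 (log2 change -1.69).

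The IL-4, IL-13 and STAT6 list moved the other way at start sites, with 0 of 26 higher and 10 lower (median -0.34), and 7 lower with loess offsets. CCL11, the chemokine eotaxin, had 3.71, 4.54, 2.82 and 2.28 with TGFB1 and 17.8, 10.8, 15.4 and 15.6 with IL13 (log2 change -2.02, limma adjusted p = 3.83e-13). CCL26, or eotaxin 3, had 6.83 ± 1.51 and 25.6 ± 4.04 (log2 change -1.84, limma adjusted p = 1.02e-15). Neither chemokine showed overlap between the groups. The start peak of POSTN, the matrix protein periostin, had 0.742 ± 0.487 and 2.85 ± 0.893 (log2 change -1.52, limma adjusted p = 0.00409). The inhibitors SOCS1 and CISH had log2 changes of -1.29 and -1.07, with 28.5 ± 6.97 and 14.8 ± 1.07 with IL13. VCAM1 (adhesion molecule, -0.93), MAOA (monoamine oxidase A, -0.62), TNC (tenascin C, -0.60), CH25H (cholesterol 25-hydroxylase, -0.60) and the kinase JAK2 (-0.31) were also lower with TGFB1 than with IL13. MAOA, CH25H and JAK2 were not called with loess offsets. The receptor IL13RA1 (-0.44, adjusted p = 0.0922) and STAT6 itself (-0.15) did not pass the limma test.

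Around SOCS1 the change covered a stretch that includes the RMI2 peak above, with 13 of 48 peaks within 40 kb lower and 0 higher. Over all peaks named for the list 66 of 902 were higher (7.32%) and 61 lower (6.76%), against 5.48% and 3.22% of all tested peaks. An intergenic peak 15.9 kb from DPP4, a dipeptidyl peptidase, had 0.665 ± 0.604 with TGFB1 and 5.05 ± 1.58 with IL13 (log2 change -2.38). An intron of IL33, the alarmin interleukin 33, had 4.20 ± 0.98 and 0.711 ± 0.635 (log2 change 2.10), against 2.30 ± 1.09 unstimulated.

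**Figure D3:**
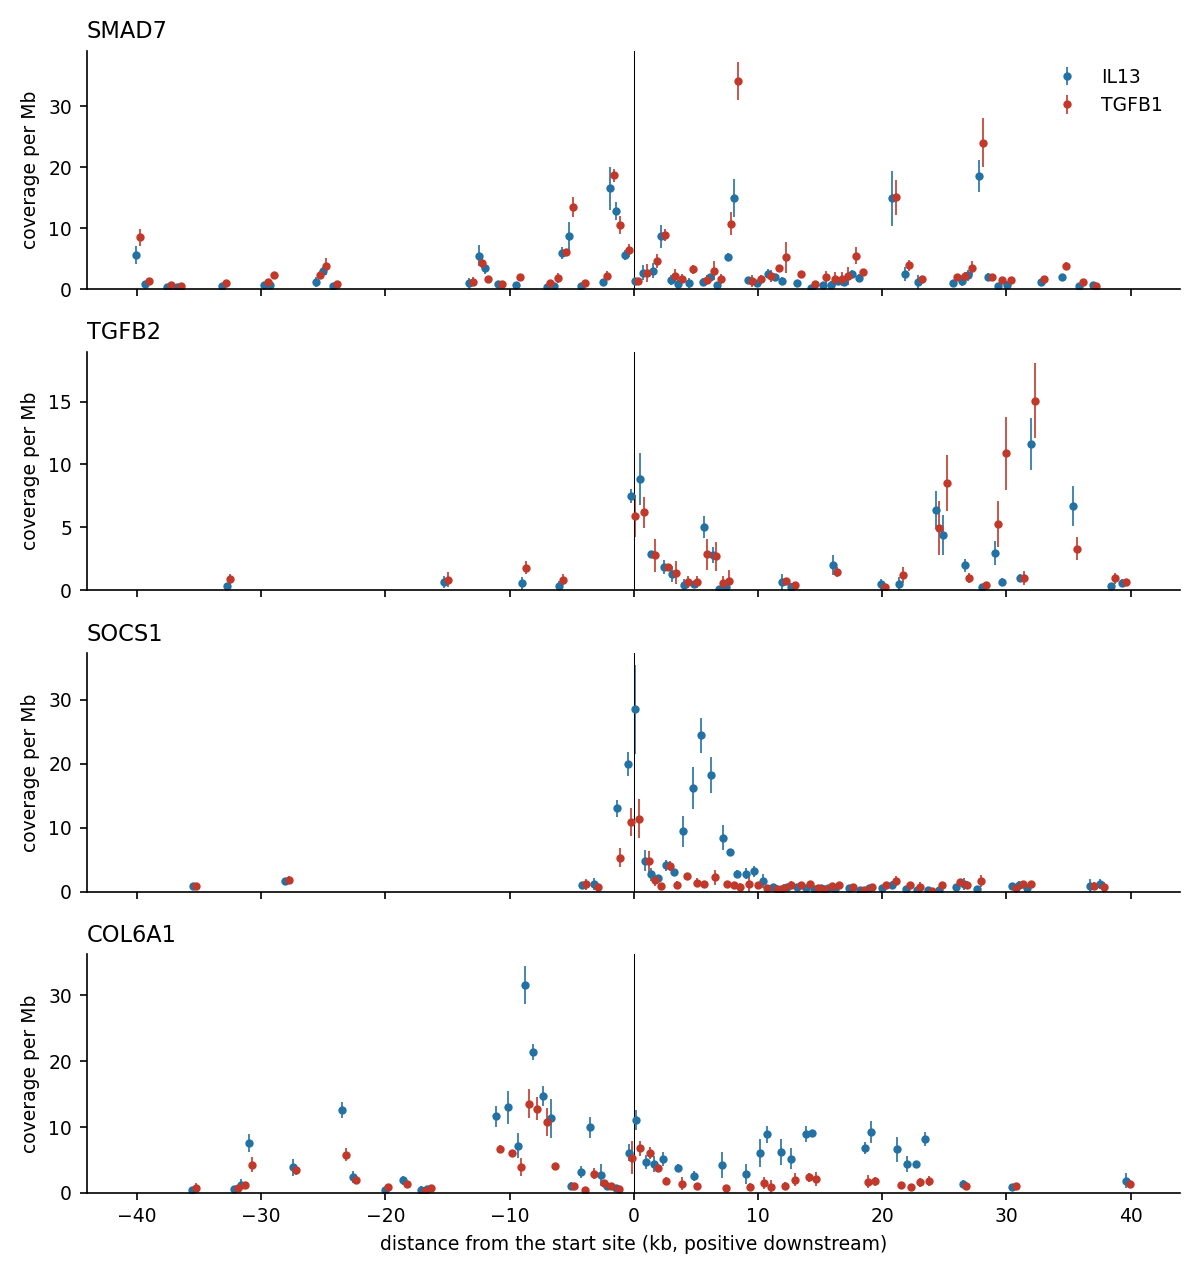
Mean coverage per Mb (vertical axis, bars are SD, n = 4) of each peak by distance from the start site in kb (horizontal axis, positive downstream) at SMAD7, TGFB2, SOCS1 and COL6A1. TGFB1 was higher at 10 of 63 peaks around SMAD7, and IL13 was higher at 13 of 48 around SOCS1 and 27 of 48 around COL6A1.

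Collagens and their modifying enzymes had 1 of 27 start peaks higher and 4 lower. The collagen VI genes COL6A1 and COL6A2 lie side by side, and both were lower with TGFB1 than with IL13. COL6A1, at an alternative start 19.2 kb inside the gene, had 0.827, 1.52, 2.39 and 2.18 with TGFB1 and 7.51, 8.49, 11.4 and 9.45 with IL13 (log2 change -2.17, limma adjusted p = 1.70e-08). COL6A2 had 8.77 ± 1.20 and 20.8 ± 4.22 (log2 change -1.19, limma adjusted p = 1.30e-08), and neither gene's groups overlapped. COL5A1 (-0.43) and the lysyl hydroxylase PLOD1 (-0.38) were lower but not called with loess offsets, and the lysyl hydroxylase PLOD2 was higher (0.62, limma adjusted p = 0.0154). The start peaks of the fibrillar collagens COL1A1, COL1A2 and COL3A1 did not pass the test, at -0.41, -0.12 and -0.49. Over all peaks named for these genes, COL1A1 had 7 of 29 lower, and 1 lower with loess offsets. COL1A2 had 9 of 77 lower and 2 higher, and COL3A1 had 2 of 25 higher. Of 70 peaks named for COL6A1, 34 were lower and 0 higher. A distal-class intron peak 134 kb from COL8A1 had 14.8 ± 2.13 with TGFB1 and 2.47 ± 1.28 with IL13 (log2 change 2.45).

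Other matrix proteins had 1 of 20 start peaks higher and 3 lower. VCAN, the proteoglycan versican, had 13.0 ± 2.31 with TGFB1 and 5.41 ± 2.14 with IL13 (log2 change 1.25, limma adjusted p = 8.74e-08). The proteoglycan decorin (DCN) was lower with TGFB1 than with IL13 by 0.88, THBS1 (thrombospondin 1) by 0.63 and SPARC, a collagen-binding protein, by 0.55 on the log2 scale. A peak in a non-coding exon 56.1 kb from HAS2, a hyaluronan synthase, had 14.8 ± 2.84 and 2.36 ± 1.54 (log2 change 2.55).

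Contractile genes, which mark the myofibroblast state, had 0 of 27 start peaks higher and 11 lower with TGFB1. ACTA2, smooth muscle actin, had 21.1, 20.1, 24.5 and 20.6 with TGFB1 and 50.8, 43.2, 47.7 and 50.3 with IL13, against 19.5 ± 5.15 in unstimulated libraries (log2 change -1.14, limma adjusted p = 1.22e-11). The groups lay far apart. Of the 12 peaks named for ACTA2 itself 0 were called, and 1 was lower with loess offsets. ACTG2, enteric smooth muscle actin, had 18.3 ± 2.79 and 41.0 ± 7.02 (log2 change -1.14, limma adjusted p = 1.09e-13). MYLK, myosin light chain kinase, had 32.4 ± 1.58 and 66.4 ± 5.35 (log2 change -1.02, limma adjusted p = 6.50e-22), and of the 27 peaks named for MYLK itself 1 was higher and 1 lower. SMTN (smoothelin, -0.84) and PDLIM7 (a PDZ and LIM protein, -0.62) also kept the call with loess offsets, while TAGLN, MYL9, LMOD1, TPM2, VCL and SRF, between -0.59 and -0.28, did not. Over all peaks named for the list 76 of 1186 were higher (6.41%) and 116 lower (9.78%), against 5.48% and 3.22% of all tested peaks. With loess offsets 42 were higher and 94 lower. An intron of ITGA11, the collagen-binding integrin α11, went the other way with 29.8 ± 4.24 and 7.76 ± 1.91 (log2 change 1.89). Its unstimulated level was 18.9 ± 2.88.

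**Figure D4:**
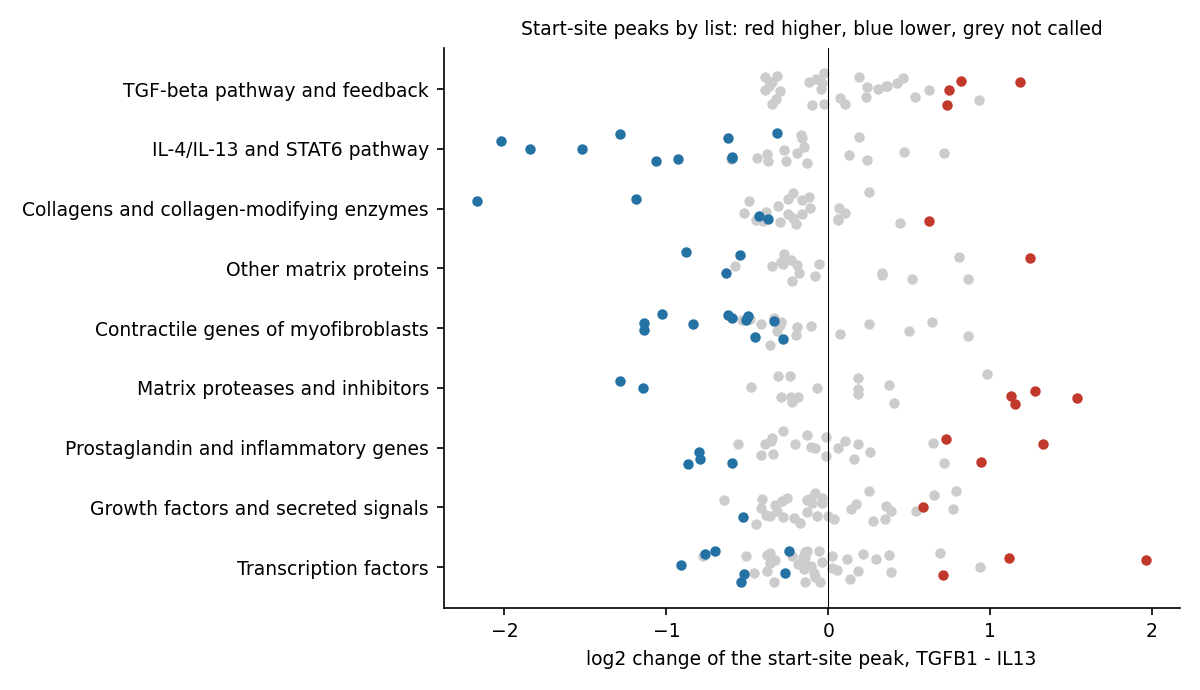
Log2 change of TGFB1 against IL13 (horizontal axis) at the start peak of each gene, 1 point a gene, by list (vertical axis; vertical scatter is only for display). Called peaks are red where higher and blue where lower, with 4 higher and 0 lower in the TGF-β list, 0 and 10 in the IL-13 list, and 0 and 11 among contractile genes.

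Matrix proteases had 4 of 20 start peaks higher and 2 lower. The collagenase MMP1 had 9.47 ± 2.61 with TGFB1 and 4.09 ± 1.70 with IL13 (log2 change 1.15). The stromelysins MMP3 and MMP10 had log2 changes of 1.54 and 1.27, and the unstimulated level of MMP3, 5.37 ± 0.422, was nearer to TGFB1 (6.78 ± 1.58) than to IL13 (2.15 ± 1.00). MMP9 (1.13) was not called with loess offsets. ADAMTS1, an aggrecanase, and PLAUR, the urokinase receptor, had -1.29 and -1.15.

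Inflammatory genes had 3 of 27 start peaks higher and 4 lower. IL11, a cytokine of the IL-6 family, had 10.7 ± 1.81 with TGFB1 and 6.22 ± 0.698 with IL13 (log2 change 0.73, limma adjusted p = 0.011), and a peak 2.5 kb from its start had a log2 change of 2.49. CSF3 (granulocyte colony-stimulating factor, 1.32) and the neutrophil chemokine CXCL8 (0.94) were also higher. The chemokines CCL2 (-0.87) and CXCL1 (-0.80), the prostaglandin E synthase PTGES (-0.79) and the transcription factor IRF1 (-0.59) were lower, the last not with loess offsets. An intron peak 124.5 kb from CXCL12, a stromal chemokine, had 11.8 ± 1.32 and 1.29 ± 0.517 (log2 change 2.82).

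Growth factors and secreted signals had 1 of 36 start peaks higher, EDN1 (endothelin 1, 0.58), and 1 lower. Of all peaks within 1 kb of a transcript start, 2.94% were higher and 5.62% lower. The other peaks given here were picked by the size of their change among all peaks named for the list. Their changes can therefore not be compared with those of the start peaks. An intron of IGF1, insulin-like growth factor 1, had 10.3, 9.82, 14.8 and 13.7 with TGFB1 and 1.35, 0.933, 1.73 and 2.1 with IL13 (log2 change 2.65). A peak named for GREM1, a BMP antagonist, lay 0.1 kb from the start of another gene, SCG5. It had 8.32 ± 1.61 and 0.82 ± 0.294 (log2 change 2.75), against 4.55 ± 1.09 in unstimulated libraries. A peak 10.1 kb from BMP4, a BMP ligand, had 0.523 ± 0.484 and 4.19 ± 1.79 (log2 change -2.2), against 3.01 ± 1.23 unstimulated.

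Transcription factors had 3 of 46 start peaks higher and 7 lower. RUNX1, a runt-domain factor, had 1.91, 1.39, 2.2 and 2.38 with TGFB1 and 0.498, 0, 0 and 0.113 with IL13 at 1 of its starts (log2 change 1.97, limma adjusted p = 4.19e-05). Of 130 peaks named for RUNX1 23 were higher and 0 lower. ETV4, an ETS factor, had a log2 change of 1.11, and SOX4, of the SOX family, 0.71. KLF2 (-0.91), TWIST2 (-0.76) and GATA6 (-0.70) were lower, and CEBPD, FOSL2 and EGR1 were lower but not called with loess offsets. An intron of TWIST2, a basic helix-loop-helix factor, had 2.70 ± 0.191 and 18.0 ± 2.13 (log2 change -2.52).

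Calls were also counted by the gene name of each peak. Besides RUNX1 and TGFBI, the protease inhibitor gene SERPINE2 had 20 of 64 peaks higher with TGFB1 and 1 lower. The names with most lower calls were COL6A1 and THBS1, with 34 of 70 and 34 of 132, and at THBS1 12 others were higher. MALAT1, a nuclear non-coding RNA, had 19 of 46 lower and ADAMTS1 17 of 76. Of 12672 gene names with a called peak, 3951 had calls in both directions.

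The shares of peaks with a letter pattern differed between the directions for some of the 12 patterns searched, not all of which are printed. The C/EBP pattern TTGCNNAA was alike, in 27.2% of higher, 27.0% of lower and 25.7% of all tested peaks. The AP-1 pattern TGANTCA was found in 53.0% of higher and 18.8% of lower peaks, against 25.7% of all tested peaks. The SMAD palindrome was in 1.01% of higher, 0.0763% of lower and 0.341% of all tested peaks, and in 6.90% of the 638 higher peaks past 4-fold. The STAT6 pattern was in 13.4% of higher, 17.4% of lower and 14.4% of all tested peaks, and in 37.3% of the 150 lower peaks past 4-fold. The E-box CAGCTG was in 25.3% of higher and 37.8% of lower peaks, against 28.4% of all. The RUNX pattern TGTGGT was in 37.8% and 27.5%, against 30.6%. Both strands were searched, and a match describes letters and not bound sites. Peaks of the directions differ in GC content, at 44.1% for higher, 50.2% for lower and 46.7% for all tested peaks, and the part of this in the shares was not tested.

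**Figure D5:**
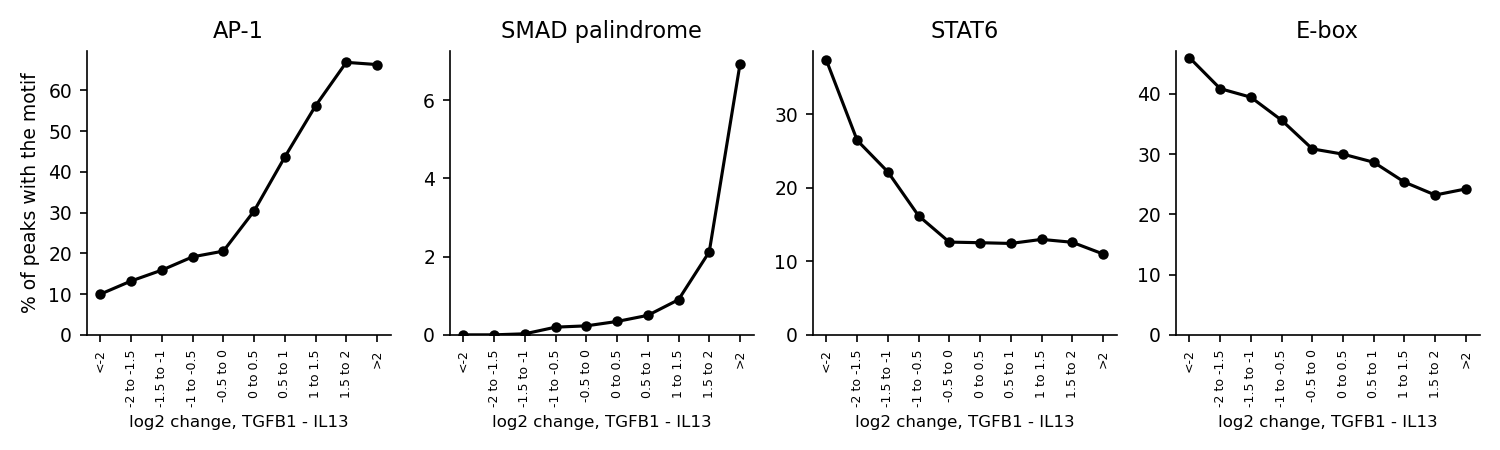
Percent of peaks holding each pattern (vertical axis) by log2 change of TGFB1 against IL13 (horizontal axis, bins from below -2 to above 2), for peaks whose mean coverage reached 1 per Mb. The AP-1 share runs from 10.0% in the lowest bin to 66.4% in the highest, and the STAT6 share from 37.3% to 11.0%.

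Against unstimulated cells, which both comparisons share, 14273 peaks were called with TGFB1 (3.51%; 8067 higher and 6206 lower) and 6553 with IL13 (1.61%; 2971 higher and 3582 lower). As a check of the cell line, all 12 fibroblast markers had a start peak, with a median coverage of 6.04 per Mb, against 0.659 for 8 endothelial markers and 4.35 for the 5 of 8 leukocyte markers with a start peak. The fibroblast markers PRRX1 (-0.86, limma adjusted p = 0.0352) and DCN (-0.88) were called lower with TGFB1. The summed level of the 12 ran from 52.0 to 69.1 with TGFB1 and from 80.4 to 81.8 with IL13, without overlap. Of the epithelial markers 4 of 10 had a tested start peak. EPCAM, an epithelial adhesion protein, had 2.87 ± 0.626 with TGFB1 and 0.69 ± 0.585 with IL13 (log2 change 1.65, limma adjusted p = 3.16e-05), and the summed level of the 4 ran from 8.02 to 12.5 with TGFB1 and from 5.35 to 7.78 with IL13. Of 5 leukocyte start peaks 1 was called higher, PTPRC, and CD68 was the strongest at 26.0 per Mb. The part of these in the results was not tested.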

How the data were processed

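The authors aligned paired-end ATAC-seq reads of 44 libraries to hg38 with the ENCODE pipeline, and the submitters' processing notes name MACS2. Each deposited value is an unscaled coverage signal, the bases of reads falling in a peak, for 407383 peaks of 500 bases, with a gene name and class for each peak. The study's methods describe variable-length consensus peaks for bulk ATAC-seq and ArchR peaks of this fixed width for its single-cell data; which of them underlie the deposited table is not given in the sources used here. Coverage is not a read count, so no count model was used, and 1 read adds at most 75 bases. Libraries of the 2 groups held between 239.8 and 656.1 Mb, and unequal depth limits weak peaks.

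Coverage was divided by the library total in Mb and a composition factor from trimmed log ratios (30% of ratios and 5% of means trimmed), and log2 was taken after adding 0.5. Folds are on this scale, which understates weak peaks. Peaks with a log2 mean of -3 or below were left out (207). All 44 libraries entered 1 limma 3.58.1 model (R 4.3.3) with group as its only term, with a mean-variance trend and 33 residual degrees of freedom. Adjusted p-values are Benjamini-Hochberg over all tested peaks, with a threshold of 0.05. Library measures were compared by exact permutation tests (scipy 1.17.1). The fit was tested on simulated data, where it gave few false calls and missed many small changes and weak peaks. Simulated libraries shared the same peak levels apart from the planted changes. They lacked the trend of change with peak level seen here, so false calls from such a trend were not measured. Starts and features come from GENCODE v44, and coordinates are those of the deposited table.

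The peaks named are the 12 with the largest change in each direction (mean of at least 1 per Mb, groups not overlapping, at most 2 a gene name), the called start peak within 1 kb of each list gene, per list the 3 strongest called peaks in each direction, and the 10 gene names with most calls in each direction. Not all are printed, and some genes counted in the lists are not reported here. List and marker genes that were not called were named after their values were seen, as were peaks from the regions around 6 genes and the called markers. The comparison and the lists were chosen with earlier results of these data known. Replicates with the same number in the 2 groups had deviations correlated at 0.000208 to 0.015, so numbers were not taken to pair libraries. Alternatives were other scalings, filters, pseudocounts, models, corrections for GC, a replicate block and leaving out each library.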

Additional observations from a re-analysis of the deposited data

Results flagged for a closer look

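Among 276 sets of 4 libraries of the named peaks, 12 had 1 library far from the other 3, and chance gives about 1 in 20. At the IRF2 peak TGFB1 replicate 2 had 2.52 per Mb. At SYT2 TGFB1 replicate 3 had 0. At the TGFB2 intron TGFB1 replicate 1 had 15.2. At IRS2 IL13 replicate 3 had 2.30. At LOXL2 IL13 replicate 3 had 2.04. At HAS2 TGFB1 replicate 4 had 10.6. At BMP4 TGFB1 replicate 3 had 1.25. At TWIST2 IL13 replicate 3 had 21.1. At LMOD1 IL13 replicate 2 had 41.5. At PLOD1 TGFB1 replicate 1 had 26.7. At POSTN TGFB1 replicate 2 had 0.0139 and IL13 replicate 2 had 4.18.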

How the results depend on the processing

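The 24 peaks with the largest change kept direction and call under all 24 alternatives run on them (576 of 576 values). For 110 other named peaks 2424 of 2634 values did so, 206 lost the call and 4 reversed, all at the EGR1 start (0.049 with GC correction, with and without the block, 0.017 with loess offsets and 0.016 with quantile normalization). A minimum log2 change of 0.25 left 13911 calls (8942 higher, 4969 lower). Higher calls were 14080 with loess offsets and 13693 with only the 8 libraries. By another scaling higher calls were 14992 of 28269 (quantile normalization), and with a mean of at least 1 per Mb 17030 of 32352. Leaving out 1 of the 8 libraries gave 28130 to 33147 calls (38810 without IL6 replicate 4), differences in the share of the strongest 1% of peaks of -2.57 to -2.14 points and of promoter-class peaks of -3.14 to -2.71 points (exact permutation p of 0.0571, the smallest possible with 3 against 4), and in total coverage of -31.1 to 109.2 Mb, with -31.1 without TGFB1 replicate 4, -29.6 without IL13 replicate 2 and -0.868 without IL13 replicate 3. Calls of IL13 against unstimulated ran from 4088 (without unstimulated replicate 4) to 6167, higher from 1842 to 2457 and lower from 2242 to 3748. The cause was not tested. Depth limits weak peaks.

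With the replicate number as a block 35766 peaks were called. The labels do not say whether the numbers pair libraries. Same-number deviations correlated at no more than 0.015, which does not settle it, and not every library correlated best with its own number.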
